A study of Mus musculus with 9 samples.

Results

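Brush border peptidases and the proteins that build the microvilli of the proximal tubule were followed in the RNA of sorted tubular cells. The 10 genes were chosen by symbol, namely the endopeptidases Mme, Mep1a and Mep1b, the exopeptidases Anpep, Dpp4 and Xpnpep2, the disaccharidase Treh, and the structural genes Vil1, Ezr and Espn. All 10 were among the 24421 rows of the table, and all 10 passed the filter on low counts that left 15583 genes for testing. Poly(A) RNA was sequenced from 9 mice on a C57BL/6 background, 1 library per mouse and 3 mice in each of the groups *db/m*, *db/db* (vehicle) and *db/db*-dapa. The *db/db* mouse carries the leptin receptor mutation Lepr db on both chromosomes and becomes obese and diabetic, and the heterozygous *db/m* mouse served as the non-diabetic control. *db/db*-dapa mice received dapagliflozin, an inhibitor of the glucose transporter SGLT2, at 1.5 mg/kg/day in drinking water for 8 weeks, and *db/db* mice received vehicle. All 9 mice, controls included, carried SLC34a1GCE (CreERT2 in the Slc34a1 locus) and R26tdTomato, and had tamoxifen injections at 8 weeks of age. The label therefore depends on Slc34a1 being active in a cell at that age. Living tdTomato-positive cells from dissociated kidney cortex were collected by FACS, and the sample labels name the tissue only as kidney.

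Microvilli of the proximal tubule carry enzymes on their outer face, which cut filtered peptides and sugars into pieces that neighboring transporters take back into the cell. Neprilysin and the meprins cut within peptide chains, aminopeptidase N, dipeptidyl peptidase 4 and aminopeptidase P trim the amino-terminal end, and trehalase splits trehalose into glucose. Inside each microvillus, villin and espin bundle actin filaments and ezrin ties the bundle to the membrane.

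Promoter sequences are shown for Mep1a, Anpep and Treh, because the levels of these genes moved together among the *db/db* mice. Mme moved with them, but RefSeq gives it 3 starts, and none of its windows is shown. Each run holds the 200 bases from 250 to 51 bases before the RefSeq start of transcription in GRCm38.p6, read 5′ to 3′ on the strand of the gene. Windows from RefSeq were read for 9 of the 10 genes, in 13 entries. No window was read for Mep1b, although it too was highest in *db/db* replicate 3 among the *db/db* mice. The motif counts below therefore do not cover Mep1b. The Mep1a window lies at chr17:43502824-43503023 on the minus strand, upstream of the gene, with a GC content of 38.5%. The Anpep window lies at chr7:79848261-79848460 on the minus strand, inside the span of the GENCODE gene, with a GC content of 73.0%. The Treh window lies at chr9:44672983-44673182 on the plus strand, upstream of the gene, with a GC content of 51.0%. Overlap of the 3 windows with exons was not tested. The median over all promoters of this length was 51.5%, so the Mep1a window was poorer and the Anpep window richer in G and C than that median.
Mep1a: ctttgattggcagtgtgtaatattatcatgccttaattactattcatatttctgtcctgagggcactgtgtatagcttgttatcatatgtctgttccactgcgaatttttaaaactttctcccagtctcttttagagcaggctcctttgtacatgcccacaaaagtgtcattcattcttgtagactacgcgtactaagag
Anpep: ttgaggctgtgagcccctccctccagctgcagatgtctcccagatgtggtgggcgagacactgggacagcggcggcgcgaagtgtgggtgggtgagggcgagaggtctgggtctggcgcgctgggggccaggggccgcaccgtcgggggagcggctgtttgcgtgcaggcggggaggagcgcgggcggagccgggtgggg
Treh: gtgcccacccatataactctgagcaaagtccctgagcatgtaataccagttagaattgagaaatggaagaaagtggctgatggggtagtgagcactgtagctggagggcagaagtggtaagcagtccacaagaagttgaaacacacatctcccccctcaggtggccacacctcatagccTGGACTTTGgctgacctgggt
Capitals in the Treh sequence mark the reverse complement of CAAAGTCCA, a core motif of the nuclear receptor HNF4, beginning 71 bases before the start. Both strands of all windows were searched for this motif and for GTTAAT, a half-site of the homeodomain factor HNF1, and the motifs do not overlap each other. CAAAGTCCA was held by 1 of the 9 genes and by 0.295% of all 32851 promoters. GTTAAT was held by 0 of the 9 genes and by 5.33% of all promoters. A gene counted if any of its entries matched, whereas the shares over all promoters are per entry. A match is a description of the letters and not of binding.

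The libraries held between 2733349 and 9033123 counts, the fewest in *db/db* replicate 1, and replicates of a group correlated at 0.955 to 0.992 on the log scale. Levels are given as CPM, counts scaled to a common library size after TMM scaling. A gene was called, or passed the test, when edgeR's adjusted p was under 0.1 and its absolute log2 fold change over 1. The gene that drives the label, Slc34a1, was found at 3530 to 4151 CPM in *db/m*, 4404 to 6195 in *db/db* and 4464 to 4630 in *db/db*-dapa mice. All 8 listed markers of the proximal tubule were found, and they summed to 12860 to 14130 CPM in *db/m* mice, 14170, 12160 and 18990 in *db/db* mice and 14980 to 18550 in *db/db*-dapa mice. Every *db/db*-dapa mouse thus lay above every *db/m* mouse, and *db/db* replicate 3 had the highest sum. Thick ascending limb markers were present in all mice, with 4 of 4 genes tested and summed levels of 801 to 1634 CPM in *db/m*, 344 to 1073 in *db/db* and 428 to 534 in *db/db*-dapa mice, so the sorted cells were not free of other tubular RNA. Podocyte markers summed to 255 CPM in *db/db*-dapa replicate 1 and to between 18.0 and 80.9 in the other mice. Erythroid markers summed to 1450 CPM in *db/db* replicate 2 and to between 29.0 and 417 in the other mice. Distal convoluted tubule markers reached 690 CPM and principal cell markers 482, both in *db/m* replicate 3. Endothelium markers reached 168.5 CPM in *db/db* replicate 2. T and B cell markers summed to at most 2.60 CPM in any mouse.

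A brush border hierarchy was found when the levels were divided by the length of the longest coding transcript of each gene. Mme has 7 and Espn 15 coding transcripts. Which transcripts were expressed was not tested, so the order may depend on this choice of length. In *db/m* mice Mep1a stood first at 330.4 ± 42.1 CPM per kb (SD, n = 3), followed by Ezr at 157 ± 29.5, Vil1 at 82.7 ± 13.7, Treh at 58.2 ± 5.32 and Anpep at 46.6 ± 9.92 CPM per kb. Mep1b at 16.6 ± 7.08, Dpp4 at 14.7 ± 3.46, Mme at 7.32 ± 1.54, Espn at 5.74 ± 0.694 and Xpnpep2 at 1.95 ± 1.23 CPM per kb completed the order. Of the 9 pairs of neighbors in this order, 3 overlapped between mice, namely Treh and Anpep, Mep1b and Dpp4, and Mme and Espn. Mep1b held rank 6 in *db/m* mice and rank 10 in both other groups, where it averaged 0.743 ± 0.999 (*db/db*) and 1.28 ± 0.771 CPM per kb (*db/db*-dapa, SD, n = 3 each). Mep1a, Ezr and Vil1 held ranks 1, 2 and 3 in all 3 groups.

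**Figure D1:**
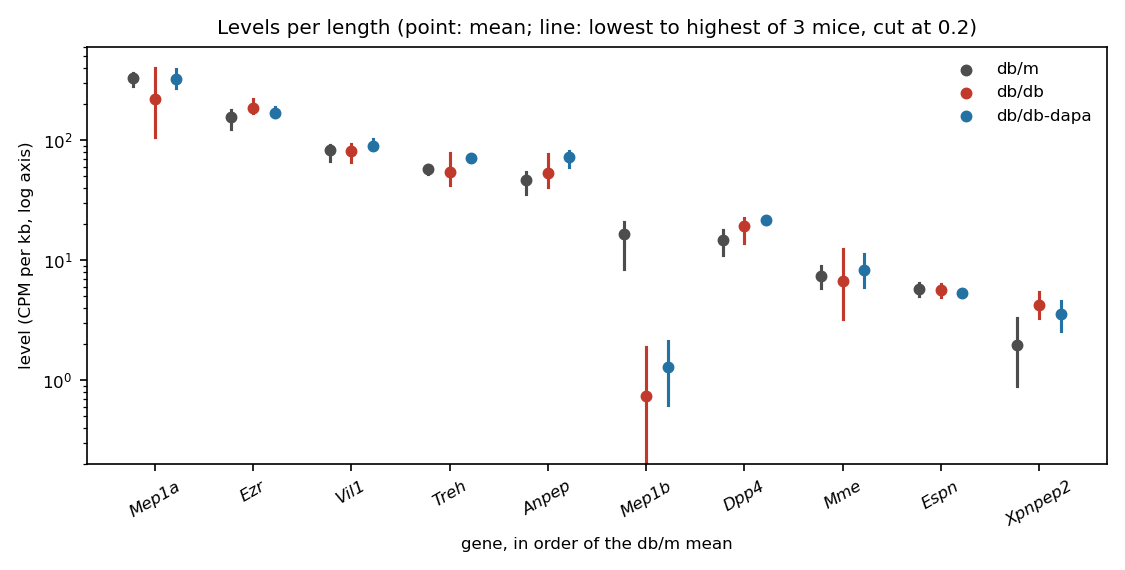
Level of each of the 10 genes in CPM per kb of its longest coding transcript on a log axis, with points for the group mean and lines from the lowest to the highest of 3 mice (lines that reach below 0.2 are cut there). Mep1b drops from rank 6 in *db/m* mice to rank 10 in *db/db* and *db/db*-dapa mice, whereas no other gene moves by more than 1 rank.

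Mep1b, which encodes the beta subunit of meprin, a membrane-bound zinc endopeptidase, was lower in both groups of *db/db* mice than in *db/m* mice. It lies on chromosome 18 of GRCm38 from 21061923 to 21100199. Its level was 47.6, 19.2 and 46.8 CPM in *db/m* replicates 1, 2 and 3. In *db/db* mice it was 0, 0.800 and 4.29 CPM, and in *db/db*-dapa mice 1.42, 2.49 and 4.86 CPM. All *db/m* mice therefore lay above all 6 *db/db* and *db/db*-dapa mice, which overlapped each other. The difference for *db/db* against *db/m* was -4.16 on the log2 scale (SE 0.71, 17.9-fold lower, edgeR adjusted p = 0.0228). That for *db/db*-dapa against *db/m* was -3.66 (SE 0.66, 12.6-fold lower, edgeR adjusted p = 0.0420). Dapagliflozin-treated and untreated *db/db* mice differed by 0.50 (SE 0.75, edgeR adjusted p = 0.906), which did not pass the test. This value moved from -0.08 without *db/db*-dapa replicate 3 to 2.56 without *db/db* replicate 3 (adjusted p = 0.169), and its size was therefore not settled by these mice. In bulk RNA, fewer cells of one kind and less RNA per cell cannot be told apart.

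The counts behind these levels were small. Mep1b had 302, 110 and 211 counts in *db/m* mice, 0, 4 and 34 in *db/db* mice and 10, 19 and 43 in *db/db*-dapa mice. The 0 counts of *db/db* replicate 1, the shallowest library, allow a level of up to 1.02 CPM (3 counts), and this limit and the intervals given here cover counting error only. Without *db/db* replicate 3 the difference for *db/db* against *db/m* was -6.20 (adjusted p = 0.00255), and without *db/m* replicate 1 it was -4.00 and no longer passed (adjusted p = 0.103). The difference for *db/db*-dapa against *db/m* stayed between -4.24 and -3.34 when single mice were left out. It did not pass without *db/m* replicate 1 (adjusted p = 0.189), *db/m* replicate 3 (adjusted p = 0.169) or *db/db*-dapa replicate 2 (adjusted p = 0.277). A processed pseudogene, Gm6378, overlaps Mep1b on the opposite strand, and whether strand was used in counting is not stated.

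Mep1a encodes the alpha subunit of meprin, which can pair with the beta subunit. It lies on chromosome 17 from 43474324 to 43502812. Mep1a was found at 1011, 1087 and 843 CPM in *db/m* mice and at 812, 919 and 1166 CPM in *db/db*-dapa mice. In *db/db* mice it was 319, 476 and 1184 CPM, so replicates 1 and 2 lay below every other mouse and replicate 3 above every other mouse. As group means, 659 ± 461 CPM in *db/db* (SD, n = 3) stood beside 980.4 ± 125 in *db/m* and 966 ± 181 in *db/db*-dapa mice. The difference from *db/m* mice was -0.57 in *db/db* mice (SE 0.39, edgeR adjusted p = 0.555) and -0.02 in *db/db*-dapa mice (SE 0.38, adjusted p = 0.980). Leaving out *db/db* replicate 3 was the only omission of 1 mouse that changed a call of Mep1a. Without this mouse, the difference of *db/db* from *db/m* mice was -1.31 (adjusted p = 0.0201). *db/db*-dapa mice were then higher than *db/db* mice by 1.29 (adjusted p = 0.0640), where the difference over all mice was 0.55 (SE 0.39, adjusted p = 0.854). Over the 9 fits with 1 mouse left out, Mep1a ran from -1.31 to -0.24 for *db/db* against *db/m*. For *db/db*-dapa against *db/db* it ran from 0.22 to 1.29. The lowest Mep1a level, in *db/db* replicate 1, came from the shallowest library.

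The meprin subunits moved unequally between the groups. As a share of the counts of both subunits, Mep1b made up 4.50% (95% exact binomial interval 4.01 to 5.02), 1.73% (1.43 to 2.09) and 5.26% (4.59 to 6.00) in the 3 *db/m* mice. In *db/db* mice the share was 0% (up to 0.392), 0.168% (0.0458 to 0.429) and 0.361% (0.251 to 0.505). In *db/db*-dapa mice it was 0.175% (0.0837 to 0.321), 0.271% (0.163 to 0.422) and 0.416% (0.301 to 0.559). The lowest *db/m* mouse lay above the highest mouse of the other groups, and the intervals did not meet. An exact two-sided permutation test over mice gave p = 0.1 for each group against *db/m* mice, the smallest p that 3 against 3 allows, and p = 0.4 when treated and untreated *db/db* mice were compared.

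**Figure D2:**
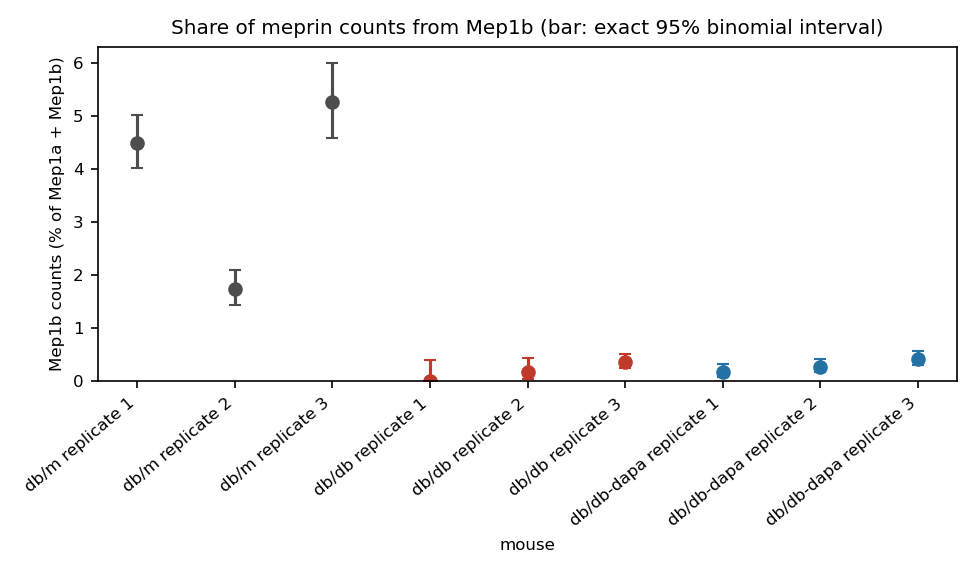
Share of the meprin counts (Mep1a plus Mep1b) that came from Mep1b in each of the 9 mice, in percent, with exact 95% binomial intervals of the counts as bars. The *db/m* mice range from 1.73% to 5.26%, and the 6 other mice lie at or below 0.416%.

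Mme encodes neprilysin, an endopeptidase that degrades natriuretic peptides, angiotensins and other small peptides, and lies on chromosome 3 from 63241537 to 63386030. Its level was 71.7, 58.1 and 46.8 CPM in *db/m* mice, 25.8, 35.0 and 99.8 in *db/db* mice, and 48.4, 59.6 and 91.2 in *db/db*-dapa mice. The spread was widest in *db/db* mice, which held both the lowest mice and the highest. The *db/db* mean of 53.5 ± 40.3 CPM (SD, n = 3) differed from the *db/m* mean of 58.9 ± 12.4 by -0.12 on the log2 scale (SE 0.43, edgeR adjusted p = 0.928). *db/db*-dapa mice differed from *db/db* mice by 0.29 (SE 0.42, adjusted p = 0.904). Without *db/db* replicate 3 the latter difference was 1.13 (adjusted p = 0.0951) and passed the thresholds, and that for *db/db* against *db/m* was -0.95 (adjusted p = 0.179).

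**Figure D3:**
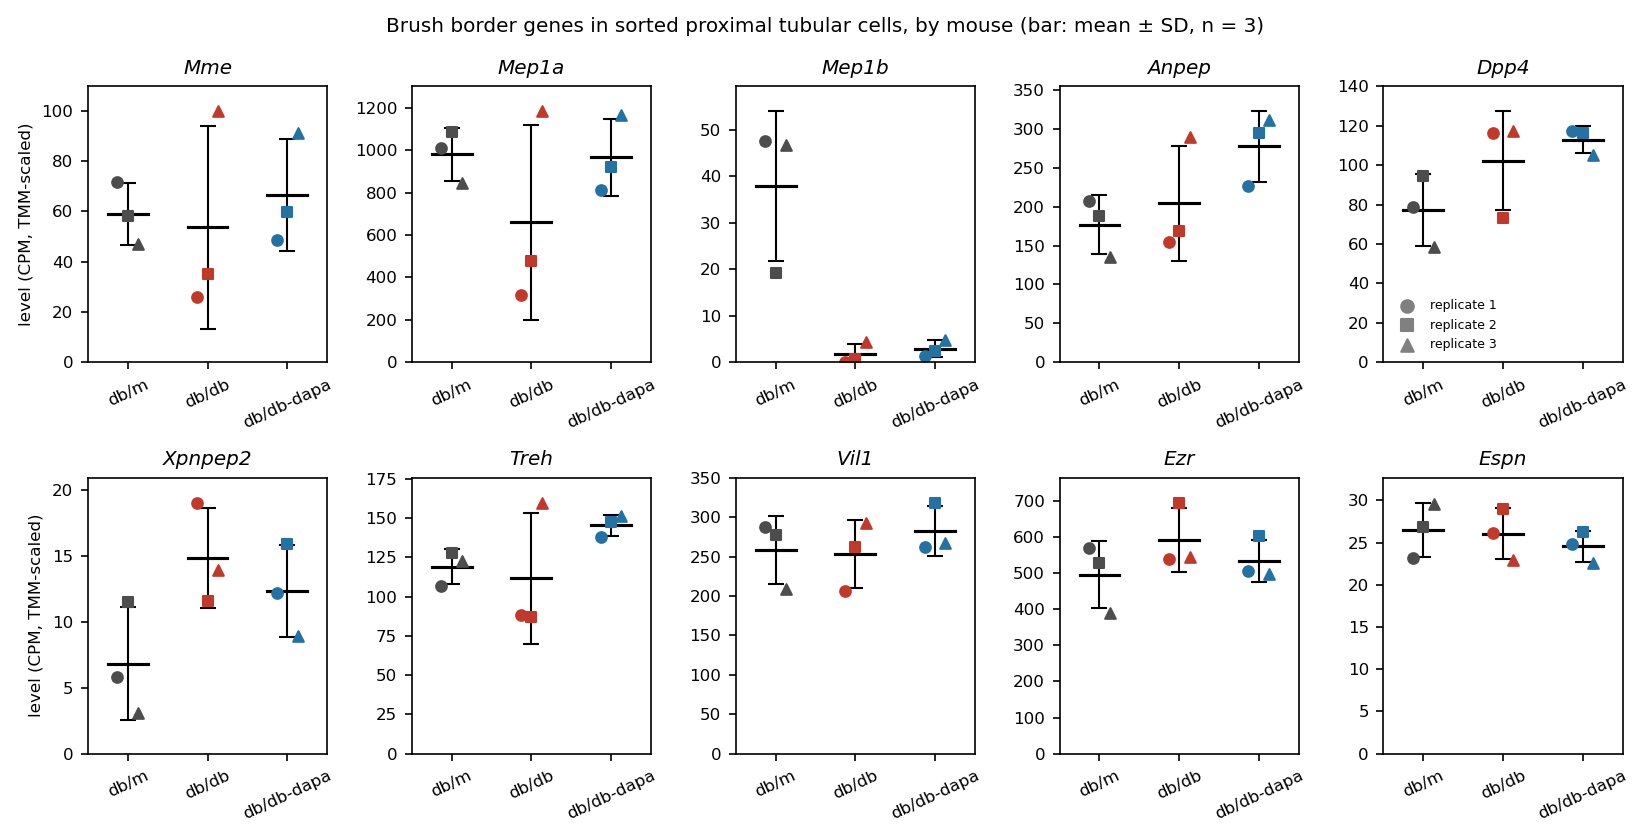
Level of each gene in CPM in the 9 mice, by group, with symbols for the replicate numbers and bars for the mean ± SD of 3 mice. Mep1b is at 19.2 CPM or more in *db/m* mice and at 4.86 or less in the others, and *db/db* replicate 3 lies apart from replicates 1 and 2 for Mme, Mep1a, Anpep and Treh.

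Among the exopeptidases, Anpep and Dpp4 were higher in every *db/db*-dapa mouse than in every *db/m* mouse, but the differences did not pass the test. Anpep encodes aminopeptidase N and lies on chromosome 7 from 79821803 to 79861059. Anpep was measured at 208, 188 and 135 CPM in *db/m* mice, 154, 169 and 289 in *db/db* mice, and 226, 295 and 312 in *db/db*-dapa mice. *db/db*-dapa mice averaged 278 ± 45.3 CPM and *db/m* mice 177 ± 37.7 (SD, n = 3 each), a difference of 0.65 (SE 0.26, edgeR adjusted p = 0.241). The *db/db* mice, at 204 ± 74.1 CPM, overlapped both, with differences of 0.21 from *db/m* mice (SE 0.26, adjusted p = 0.759) and of 0.44 for *db/db*-dapa against *db/db* (SE 0.26, adjusted p = 0.854).

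Dpp4 encodes dipeptidyl peptidase 4, which inactivates incretin hormones, and lies on chromosome 2 from 62330073 to 62412231. Its level was 78.9, 94.7 and 58.4 CPM in *db/m* mice, 116, 73.4 and 117 in *db/db* mice, and 117, 116 and 105 in *db/db*-dapa mice. The *db/db*-dapa mice lay close together at 113 ± 6.82 CPM (SD, n = 3) and 0.54 above *db/m* mice on the log2 scale (SE 0.22, edgeR adjusted p = 0.249). *db/db* mice were 0.40 above *db/m* mice (SE 0.23, adjusted p = 0.466) and overlapped them. Xpnpep2, a membrane-bound aminopeptidase P that cuts before proline, lies on the X chromosome from 48108725 to 48136981 and had the lowest level per length of the 10 genes in *db/m* mice. It was found at 5.83, 11.5 and 3.11 CPM in *db/m* mice, 19.03, 11.6 and 13.9 in *db/db* mice, and 12.2, 15.9 and 8.94 in *db/db*-dapa mice. Every *db/db* mouse lay above every *db/m* mouse, by 11.6 against 11.5 CPM at the closest. The difference was 1.09 (SE 0.41, edgeR adjusted p = 0.272), and that for *db/db*-dapa against *db/m* was 0.84 (SE 0.41, adjusted p = 0.295).

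Treh encodes trehalase, the only disaccharidase of the set, and lies on chromosome 9 from 44673233 to 44686305. Its level was 107, 128 and 123 CPM in *db/m* mice, 88.4, 87.0 and 159.8 in *db/db* mice, and 138, 147 and 151 in *db/db*-dapa mice. *db/db* replicates 1 and 2 were the lowest of all 9 mice and *db/db* replicate 3 was the highest. All *db/db*-dapa mice lay above all *db/m* mice, with a difference of 0.29 (SE 0.23, edgeR adjusted p = 0.496). Against untreated *db/db* mice it was 0.38 (SE 0.23, adjusted p = 0.854), and 0.75 without *db/db* replicate 3 (adjusted p = 0.0830, below the fold threshold).

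The structural genes overlapped between the groups in every comparison. Vil1, which encodes villin and lies on chromosome 1 from 74409376 to 74435559, was found at 288, 277 and 209 CPM in *db/m* mice, 207, 262 and 292 in *db/db* mice, and 262, 318 and 267 in *db/db*-dapa mice. Ezr, which encodes ezrin and lies on chromosome 17 from 6738041 to 6782784, was found at 569, 529 and 391 CPM in *db/m* mice, 538, 695 and 544 in *db/db* mice, and 505, 602 and 497 in *db/db*-dapa mice. Espn, which encodes espin and lies on chromosome 4 from 152120331 to 152152371, was found at 23.2, 26.9 and 29.5 CPM in *db/m* mice, 26.2, 29.0 and 23.0 in *db/db* mice, and 24.8, 26.3 and 22.6 in *db/db*-dapa mice. None of the 3 genes separated the mice by group. Log2 differences for *db/db* against *db/m* were -0.02 for Vil1 (SE 0.19), 0.26 for Ezr (SE 0.20) and -0.03 for Espn (SE 0.18). With dapagliflozin, against untreated *db/db* mice, they were 0.15 for Vil1 (SE 0.19), -0.15 for Ezr (SE 0.19) and -0.08 for Espn (SE 0.18), with edgeR adjusted p of 0.892 or above. Vil1 overlaps Usp37, Ezr overlaps Sytl3, Treh overlaps Phldb1 and Dpp4 overlaps Gm13561 on the opposite strand, and Anpep overlaps Gm44974 on its own strand. The deposited values were all whole numbers except in 2 members, Vil1 and Ezr.

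Over the set, 1 of the 10 genes, Mep1b, was called for *db/db* against *db/m*, where 1.24% of all genes tested were called. Groups did not overlap for 1 gene that was higher (Xpnpep2) and 1 that was lower (Mep1b), beside 16.4% of all genes. The median log2 fold change of the 10 genes was -0.02 and that of all genes 0.02. In the comparison of *db/db*-dapa with *db/m* mice, 1 of the 10 genes was called, again Mep1b, beside 1.05% of all genes. Groups did not overlap for 3 genes that were higher (Anpep, Dpp4 and Treh) and 1 that was lower (Mep1b), beside 28.1% of all genes. The summed proximal tubule markers were also higher without overlap, and their part in these differences was not tested. The median was 0.15 against -0.02 over all genes. Both comparisons share the *db/m* mice.

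Dapagliflozin-treated against untreated *db/db* mice gave 0 called of the 10 genes and 0 genes with groups that did not overlap, beside 0% and 10.2% of all genes. The median was 0.22 against -0.01 over all genes, and 7 of the 10 genes were higher in *db/db*-dapa mice. In edgeR 0 of the 10 genes and 5.19% of all genes had an unadjusted p under 0.05, so the set was near that share. DESeq2 called 0 of the 10 genes and 13 of all genes, and limma-voom with mouse weights called 1 of the 10 genes (Mep1a) and 449 of all genes. Without *db/db* replicate 3, edgeR called 2 of the 10 genes (Mep1a and Mme) and 272 of all genes, so that 1 mouse sets this count.

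**Figure D4:**
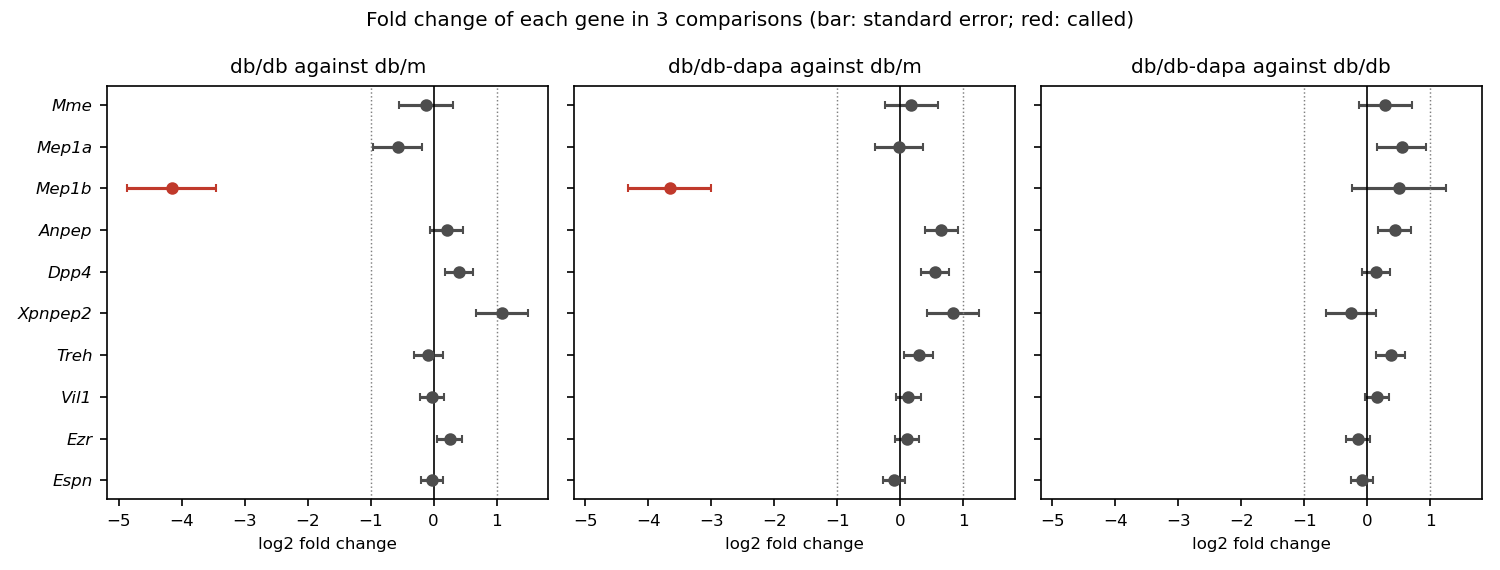
Log2 fold change of each gene with its standard error in the 3 comparisons, from 1 fit over the 9 mice, with dotted lines at the threshold of 1. Mep1b lies at -4.16 and -3.66 in the comparisons with *db/m* mice and at 0.50 for *db/db*-dapa against *db/db*, and Xpnpep2 reaches 1.09 without passing the test.

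The *db/db* mice differed among themselves in several enzymes and less in the structural genes. Replicate 3 over the mean of replicates 1 and 2 was 10.7 for Mep1b, 3.28 for Mme, 2.98 for Mep1a, 1.82 for Treh and 1.79 for Anpep. It was 1.25 for Vil1, 1.24 for Dpp4, 0.907 for Xpnpep2, 0.881 for Ezr and 0.833 for Espn. Replicate 3 was the highest of the *db/db* mice for 7 of the 10 genes, as it was for 37.3% of all genes tested. Library depth also rose from replicate 1 to 3, with 2733349, 4951113 and 7635669 counts in *db/db* mice and 6981225, 7626107 and 9033123 in *db/db*-dapa mice. Among *db/db*-dapa mice Mme, Mep1a, Mep1b, Anpep and Treh rose in the same order, and Dpp4, Xpnpep2, Vil1, Ezr and Espn did not. In *db/m* mice depth fell from replicate 1 to 3, with 6571572, 5754910 and 4817721 counts. There Mme, Anpep, Vil1 and Ezr fell in the same order, and Mep1a, Mep1b, Dpp4, Xpnpep2, Treh and Espn did not. The part of depth in these levels was not tested. The coefficient of variation in *db/db* mice was 75.3% for Mme, 69.9% for Mep1a, 37.3% for Treh and 36.3% for Anpep, and 11.6% to 17.0% for the structural genes. In *db/m* mice the same enzymes varied by 21.1%, 12.7%, 9.15% and 21.3%. Dpp4 varied alike in both groups (24.5% and 23.6%), and Xpnpep2 varied less in *db/db* (25.6%) than in *db/m* mice (62.9%). These are descriptions, since the grouping of the genes was made after their values were seen.

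**Figure D5:**
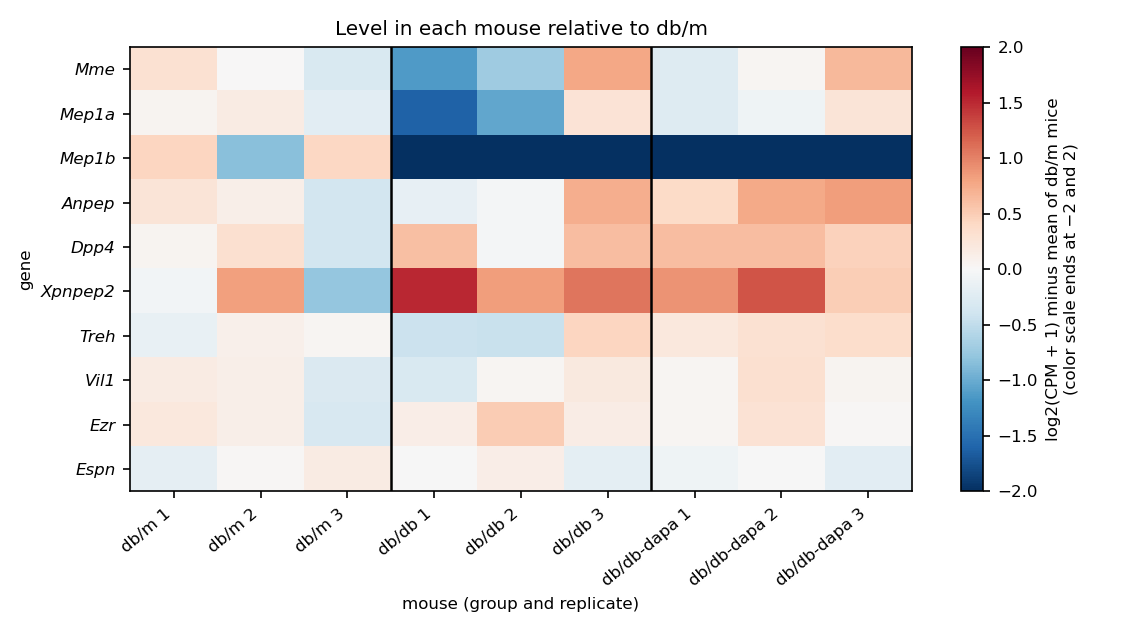
Level of each gene in each mouse as log2(CPM + 1) relative to the mean of the *db/m* mice, with the color scale ending at -2 and 2. *db/db* replicates 1 and 2 are low for Mme, Mep1a and Treh while *db/db* replicate 3 is high for the same genes, and Mep1b is low in all 6 *db/db* and *db/db*-dapa mice.

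Markers of the S3 segment, the last part of the proximal tubule, were read beside these genes. All 6 listed markers were tested, and their summed level was 1374, 1374 and 1132 CPM in *db/m* mice, 141, 246 and 957 in *db/db* mice and 673, 698 and 953 in *db/db*-dapa mice. The sum was lowest in *db/db* replicates 1 and 2, as was Mep1a, but the markers did not all follow it. Slc7a13, an amino acid transporter of S3, was found at 484, 376 and 310.4 CPM in *db/m* mice, 9.52, 7.40 and 100.2 in *db/db* mice and 84.7, 35.0 and 125 in *db/db*-dapa mice. Atp11a, a phospholipid flippase, was found at 696, 868 and 695 CPM in *db/m*, 99.9, 150.5 and 636 in *db/db* and 443, 519 and 662 in *db/db*-dapa mice. These were lowest in *db/db* replicates 1 and 2 and highest in *db/m* mice. Slc5a1, the glucose transporter SGLT1, was at 67.5 to 77.6 CPM in *db/m* mice, 28.9, 77.4 and 170.5 in *db/db* mice and 131 to 147 in *db/db*-dapa mice. Slc22a13 was at 11.1 to 34.8 CPM in *db/m* mice, 0.680, 9.60 and 49.5 in *db/db* mice and 10.8 to 17.5 in *db/db*-dapa mice. Both were highest in *db/db* replicate 3, and Slc5a1 was higher in every *db/db*-dapa mouse than in every *db/m* mouse. Cyp7b1 was low in all mice, at 7.56 CPM or less, and in the *db/db* mice lowest in replicate 3. Slc22a7, an organic anion transporter, was at 42.8 to 73.5 CPM in *db/m* mice and at 0.525 CPM or less in all *db/db* and *db/db*-dapa mice, with no rise in *db/db* replicate 3. It was the 1 of the 6 markers that was called lower in each comparison with *db/m* mice.

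High values in *db/db* replicate 3 were found for some, but not all, proximal tubule markers outside the S3 list. Within the *db/db* mice, replicate 3 was the highest for 4 of the 6 S3 markers and for 5 of the 8 general proximal tubule markers. It was the highest for 1 of the 5 S1 and S2 markers. The general markers Slc34a1, Slc5a2 and Slc5a12 were highest in replicate 1, with Slc5a2 at 2124, 1098 and 760 CPM in replicates 1, 2 and 3. Lrp2, which encodes the endocytic receptor megalin, was at 2182, 1646 and 5281 CPM in *db/db* replicates 1, 2 and 3, and Cubn, its partner cubilin, at 472, 485 and 1155. Slc22a6, an organic anion transporter, was at 384, 986 and 1882 CPM and the water channel Aqp1 at 306, 462 and 1107 in the same mice. S1 and S2 markers, 5 of 5 tested, summed to 5788 to 7030 CPM in *db/m*, 11700, 8055 and 7917 in *db/db* and 8473 to 9354 in *db/db*-dapa mice, and were thus lowest in replicate 3 among *db/db* mice. The part of the tubular makeup of the libraries in the levels of the 10 genes was not tested.

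Other genes of the brush border were read from a list of 26 symbols, 8 of them enzymes or their partners and 18 scaffold or cytoskeletal genes, all of which were tested. For *db/db* against *db/m* 2 of the 26 were called, both lower, beside 1.24% of all genes tested. The median log2 fold change of the 26 was 0.08, against 0.02 over all genes. Groups did not overlap for 6 genes that were higher and 4 that were lower, beside 16.4% of all genes. Ace, the angiotensin-converting enzyme, was found at 156, 159 and 171 CPM in *db/m* mice, 19.4, 38.0 and 85.0 in *db/db* mice and 83.5, 100.4 and 128 in *db/db*-dapa mice. All *db/m* mice lay above all others, and the difference for *db/db* against *db/m* was -1.74 (SE 0.40, edgeR adjusted p = 0.0811). Tmigd1, an adhesion molecule of epithelial cells, was found at 252, 198 and 212 CPM in *db/m* mice, 21.4, 46.0 and 109 in *db/db* mice and 93.4, 47.3 and 78.8 in *db/db*-dapa mice. The difference for *db/db* against *db/m* was -1.89 (SE 0.46, edgeR adjusted p = 0.0982). In both genes *db/db* replicate 3 was the highest of the *db/db* mice, as for Mep1a and Mme. The call of Ace was lost on leaving out any *db/m* mouse, *db/db* replicate 2, *db/db*-dapa replicate 2 or *db/db*-dapa replicate 3 (adjusted p from 0.112 to 0.232). That of Tmigd1 was lost on leaving out any mouse except *db/db* replicate 3 (adjusted p from 0.103 to 0.284).

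In *db/db*-dapa mice 2 of the 26 genes were called against *db/m* mice, both higher, beside 1.05% of all genes tested. The median of the 26 was 0.32, against -0.02 over all genes. Cdhr2, a protocadherin that links the tips of neighboring microvilli, was found at 11.3, 30.5 and 18.2 CPM in *db/m* mice, 37.4, 45.6 and 45.1 in *db/db* mice and 50.4, 83.9 and 49.2 in *db/db*-dapa mice. The 3 groups did not overlap, with *db/db*-dapa mice 1.61 above *db/m* mice (SE 0.33, edgeR adjusted p = 0.0627). Prom1, which encodes prominin, a protein of membrane protrusions, was found at 44.9, 65.2 and 48.0 CPM in *db/m* mice, 95.8, 65.4 and 114 in *db/db* mice and 96.7, 117 and 105 in *db/db*-dapa mice. Its difference for *db/db*-dapa against *db/m* was 1.01 (SE 0.23, edgeR adjusted p = 0.0866), at the fold threshold. Both calls were lost without *db/m* replicate 1, *db/m* replicate 3, *db/db*-dapa replicate 2 or *db/db*-dapa replicate 3, and that of Prom1 also without *db/m* replicate 2 (adjusted p from 0.113 to 0.400). Groups did not overlap for 12 genes that were higher and 4 that were lower, beside 28.1% of all genes.

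When the treated and untreated *db/db* mice were compared, 0 of the 26 genes were called, with a median of 0.13, and groups did not overlap for 4 genes that were higher and 0 that were lower, beside 10.2% of all genes. The lowest fold change was that of Pdzk1ip1, a membrane-associated protein of the proximal tubule, at -0.25 (SE 0.27, edgeR adjusted p = 0.879). It was found at 920.3, 874 and 1167 CPM in *db/m* mice, 1039, 908 and 516 in *db/db* mice and 886, 653 and 529 in *db/db*-dapa mice. Among the *db/db* mice replicate 3 was the lowest for this gene, unlike Ace and Tmigd1. The highest was that of Myo1a, a myosin of intestinal microvilli, which is given without a fold because all *db/db* mice were at 0 and no *db/db*-dapa mouse exceeded 0.525 CPM. Without *db/db* replicate 3, 2 of the 26 genes were called, beside 272 of the 15519 genes tested in that fit.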

How the data were processed

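RNA of tdTomato-positive cells sorted from 9 mice was analysed, with 3 mice in each of the 3 groups, and group names and replicate numbers were taken from the sample titles. The authors prepared stranded poly(A) libraries and mapped single-end reads to mm10 with TopHat2 2.0.13, Bowtie2 2.2.3 and SAMtools 0.1.19, and used Cufflinks 2.2.1, per the submitters' processing notes. The deposited table is named as FPKM but holds estimated counts, since 91.0% of its values are whole and its columns sum to 2733349 to 9033123. How these estimated counts were made, and whether strand was used, is not given in the sources used here.

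The estimated counts were rounded and fitted in edgeR 4.0.16 under R 4.3.3 (TMM scaling, quasi-likelihood F test in its earlier form) in 1 fit over 9 mice, on the 15583 of 24421 genes with at least 0.3 CPM in at least 2 mice. Adjusted p-values (Benjamini-Hochberg) run over all genes tested, and standard errors were derived from the F value. The biological coefficient of variation was 0.259. Exact permutation tests were two-sided. Alternatives were other scalings and filters, DESeq2 1.42.0, limma 3.58.1 on log2(CPM + 1) and log2(CPM + 0.1), voom with mouse weights, only the 2 groups compared, a replicate block and leaving out each mouse. The edgeR, DESeq2 and limma fits were tested on simulated data. Gene models were GENCODE's for GRCm38, and promoters came from RefSeq for GRCm38.p6.

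The members, the wider list and the markers were chosen with earlier results of these data known. All 10 members were named. Of the wider list, called genes were named, or otherwise those with the highest and lowest fold change of a comparison. Markers of the S3 segment were all named, and other markers where their level moved with a member.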

Additional observations from a re-analysis of the deposited data

How the results depend on the processing

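Under the settings other than leaving out 1 mouse, 320 fold changes of the 10 genes kept their direction and their side of the thresholds, 7 turned, 2 newly passed and 1 no longer passed. With 1 mouse left out, 242 kept both, 21 turned, 3 newly passed and 4 no longer passed. Scaling to a common total per mouse moved the median of all genes for *db/db* against *db/m* from 0.02 to 0.13, and there Treh turned to 0.019, Vil1 to 0.076 and Espn to 0.080, and Mep1a for *db/db*-dapa against *db/m* to 0.016. In limma-voom with mouse weights, Anpep turned to -0.13 and Espn to 0.11 for *db/db* against *db/m*, with Espn at 0.0081 for *db/db*-dapa against *db/m*. In that setting 2 members were called for *db/db* against *db/m* (Mep1a added, at -1.18, adjusted p = 0.0508) and 1 for *db/db*-dapa against *db/db* (Mep1a at 1.11, adjusted p = 0.0854). In limma on log2(CPM + 0.1), 0 members were called for *db/db*-dapa against *db/m* (Mep1b at -3.70, adjusted p = 0.157). The cause was not tested.

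Among the 26 other brush border genes, the count for *db/db* against *db/m* was 4 without a filter, 5 in DESeq2 and 0 with only the 2 groups compared. For *db/db*-dapa against *db/m* it was 1 with upper quartile scaling, 5 without a filter, 5 in DESeq2, 5 in limma-voom and 5 with only the 2 groups compared. For *db/db*-dapa against *db/db* it was 2 in limma-voom. Of all genes, DESeq2 called 363 and 507 in the comparisons with *db/m* mice. No filter gave 235 and 275 there, and only the 2 groups compared gave 114 and 626. Limma-voom gave 262 for *db/db* against *db/m*, 1619 for *db/db*-dapa against *db/m* and 449 for *db/db*-dapa against *db/db*. For *db/db*-dapa against *db/m*, upper quartile scaling gave 160 and limma on log2(CPM + 0.1) gave 143.

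With 1 mouse left out, 0 to 2 members were called for *db/db* against *db/m*, 0 to 1 for *db/db*-dapa against *db/m* and 0 to 2 for *db/db*-dapa against *db/db*. Of the wider list 0 to 3, 0 to 5 and 0 to 2 were called. Over all genes the same fits called 84 to 230, 14 to 662 and 0 to 272 genes in these comparisons. Directions of fold changes turned within the ranges that follow. For *db/db* against *db/m* they were -0.95 to 0.20 for Mme, -0.16 to 0.10 for Vil1, -0.12 to 0.057 for Espn, -0.45 to 0.066 for Treh and -0.14 to 0.37 for Anpep. In *db/db*-dapa against *db/m* they were -0.17 to 0.093 for Mep1a, -0.0066 to 0.21 for Vil1, -0.043 to 0.22 for Ezr and -0.11 to 0.36 for Mme. With dapagliflozin against untreated *db/db* they were -0.030 to 1.13 for Mme, -0.050 to 0.27 for Dpp4, -0.16 to 0.0055 for Espn and -0.077 to 2.56 for Mep1b.

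Mice with the same replicate number were not paired in the main fit. The correlations of their deviations ran from -0.323 to 0.563 over all pairs of groups, and 4 of 9 mice correlated best with their own number. They were highest for *db/db*-dapa with *db/db*, at 0.402 and 0.563 for numbers 1 and 3, beside -0.159 for number 2. With a replicate block, Mep1b was at -4.47 for *db/db* against *db/m* and -3.76 in *db/db*-dapa against *db/m*, and 1 gene of the wider list (Cdhr2) was called in the latter comparison, with 3 in place of 2 genes of that list for *db/db* against *db/m*. The block changed no other count of the members or the list. With 3 mice a group, only large changes pass the test, and levels of few counts, such as Mep1b in *db/db* mice, are limited by depth.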
